A study of Mus musculus with 12 samples.

Results

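The interferon-induced genes described here are 41 mouse genes known to be switched on by interferon, taken by name from the probe list of the array. Every probe whose target name equals a listed symbol was taken, and where a gene had several probes the probe with the highest mean log2 level over all arrays stood for it. The array gives its names in capitals, such as USP18, LY6A and BST2, and they are written here as mouse symbols. Of the 41 genes 38 were found, with 69 of the 45281 probes on the array. The names Isg15 (also sought under its older name G1p2), Irgm1 and Xaf1 were not found. The scanner software's detection p, which sets a probe against negative controls, had to be under 0.05 on 3 or more of the 12 arrays for a probe to be tested. This left 30 of the 38 genes among 17607 tested probes, and the other 8 are described as values only.

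The cells are premalignant pre-B cells, B-cell precursors in which Myc is driven by an immunoglobulin heavy-chain enhancer before lymphoma appears. The 6 Smchd1 null samples carried the Eµ-Myc transgene on the C57BL/6 background and had a gene-trap insertion on both copies of Smchd1, which codes for a chromosomal silencing protein. The 6 Smchd1 wildtype samples carried the same transgene on the same background, without that insertion. Cells were taken fresh from mice by cell sorting, and the total RNA of each sample went onto 1 Illumina mouse array. Whether each sample came from a single mouse is not given in the labels, so a p-value here covers only the spread from sample to sample, which may be technical. Since a change in a bulk sample can come from more or fewer cells of a type or from more or less RNA per cell, these cannot be told apart in any value below.

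Interferons are secreted proteins that cells release on sensing foreign or misplaced nucleic acid. Type I interferon binds the Ifnar1 and Ifnar2 receptor chains, the kinases Jak1 and Tyk2 pass the signal on, and Stat2 joins Irf9 in the complex ISGF3, which binds interferon-stimulated response elements (ISRE) in promoters. Interferon gamma acts at gamma-activated sites (GAS). The genes so induced include nucleic acid sensors, antiviral enzymes, GTPases and the ubiquitin-like Isg15 system, and some of them, such as Irf7, Irf9 and Stat2, belong to the pathway itself.

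As a check of the labels, the brightest Smchd1 probe had a log2 level of 5.05 ± 0.35 in null and 9.47 ± 0.14 in wildtype samples (SD, n = 6 each), a change of -4.42 (SE 0.14, limma adjusted p = 1.3e-09). Between 15396 and 16587 probes were detected per array, and the mean raw intensity was 3.08 to 4.43 times that of the negative controls (precision is limited by how many arrays there are). The arrays lay on 2 BeadChips, glass slides that carry several arrays, each with 3 null and 3 wildtype arrays, which were null 4, 5 and 6 with wildtype 1, 2 and 3 on BeadChip 1, and null 1, 2 and 3 with wildtype 4, 5 and 6 on BeadChip 2. Among the pre-B markers Cd79b, Vpreb1 and Igll1 were detected on all 12 arrays, Pax5 on 3 null and 4 wildtype arrays and Rag2 on 1 of each. Levels of genes of other cell types differed between null arrays: the mean of 11 myeloid genes stood 3.27 above the wildtype mean in null 3, and the mean of 9 plasmacytoid dendritic genes 2.13 above it in null 5. The summary over the 30 genes is also given without those arrays, and, for the 21 genes with full statistics, a change without any array that moves it by over 1.5 times.

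Many of these promoters hold the letters that the pathway's factors are known to bind. To set such letters beside the values, 60 bases around an ISRE match are shown for the gene of largest change among the tested genes with a match in each subgroup of 2 or more, with the GAS match of Irf1 added. The sequences come from RefSeq's promoter windows on build GRCm38.p6, which run from 250 bases before to 50 bases after a gene's start, are read 5′ to 3′ on the gene's strand, and were held for 29 of the 41 genes. In the first 7 capitals mark an ISRE match, GAAA followed after any 2 bases by GAAA, or TTTC and TTTC where the match is on the other strand. In the last they mark a GAS match, TTC followed after any 3 bases by GAA, which reads the same on both strands.
Oas1g, chr5:120887597-120887656, minus strand: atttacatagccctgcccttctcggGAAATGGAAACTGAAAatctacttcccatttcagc
Ifit3, chr19:34583348-34583407, plus strand: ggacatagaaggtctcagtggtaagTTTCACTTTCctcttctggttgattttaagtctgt
Igtp, chr11:58199497-58199556, plus strand: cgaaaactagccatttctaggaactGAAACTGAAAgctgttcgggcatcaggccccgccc
Stat2, chr10:128270251-128270310, plus strand: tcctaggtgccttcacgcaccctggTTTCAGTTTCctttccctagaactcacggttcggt
Ddx58, chr4:40239789-40239848, minus strand: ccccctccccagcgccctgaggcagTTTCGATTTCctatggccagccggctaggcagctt
Bst2, chr8:71537568-71537627, minus strand: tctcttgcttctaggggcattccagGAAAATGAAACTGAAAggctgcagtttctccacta
Rsad2, chr12:26456538-26456597, minus strand: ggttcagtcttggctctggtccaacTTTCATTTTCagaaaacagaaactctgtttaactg
Irf1, chr11:53769898-53769957, plus strand: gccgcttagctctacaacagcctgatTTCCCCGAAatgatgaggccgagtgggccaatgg

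In Oas1g and in Bst2 a pair of ISRE matches overlapped, which gives their longer run of capitals. The match began 18 bases before the start of Oas1g, 34 before that of Igtp, 120 before that of Rsad2, 130 before that of Bst2, 156 before that of Ifit3 and 222 before that of Stat2. An ISRE match lay in the window of 16 of the 29 genes (55.2%), against 3.99% of the 27025 genes in the table. A GAS match lay in 9 of the 29 (31.0%), against 9.55% of all genes. By subgroup, ISRE matches were found in 3 of 5 OAS genes, 2 of 3 IFIT genes, 4 of 5 GTPase genes, both sensors with a window and 1 of 4 STAT and IRF genes. A match is a description of letters in this window, and no match says only that these letters are not in it.

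All 30 tested interferon-induced genes had a higher mean in null than in wildtype samples, and for none of them did the difference pass the test. The median change was 0.76 on the log2 scale, against -0.04 over all tested probes, and single changes ran from 0.05 to 2.33. None of the 30 genes was called at a limma adjusted p under 0.05 in either direction, where 1.22% of all tested probes were called and 0.534% were called as higher in null. The lowest adjusted p was 0.14, of Bst2. At an unadjusted p under 0.05, 14 of the 30 were higher in null, against 7.42% of all tested probes, and the change was above 0 in 30 of 30, against 41.8%.

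The null arrays were spread widely, with some samples high and others among the wildtype samples or a little below them. In 0 of the 30 genes every null array lay above every wildtype array, against 1.38% of all tested probes. The median SD of the 30 genes was 0.96 over the null arrays and 0.25 over the wildtype arrays. Some members entered the test through the null arrays in which they were high: 10 of the 30 were detected on fewer wildtype than null arrays, and Mx1 and Isg20 on no wildtype array. With those 2 genes set at their bounds the median change was 0.66. Over the 19 genes detected on all 12 arrays, where detection could not favour a genotype, the median change was 0.50, against -0.04 over the 12803 probes so detected, and 6 of the 19 had an unadjusted p under 0.05 and were higher, against 7.19% of those probes.

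**Figure D1:**
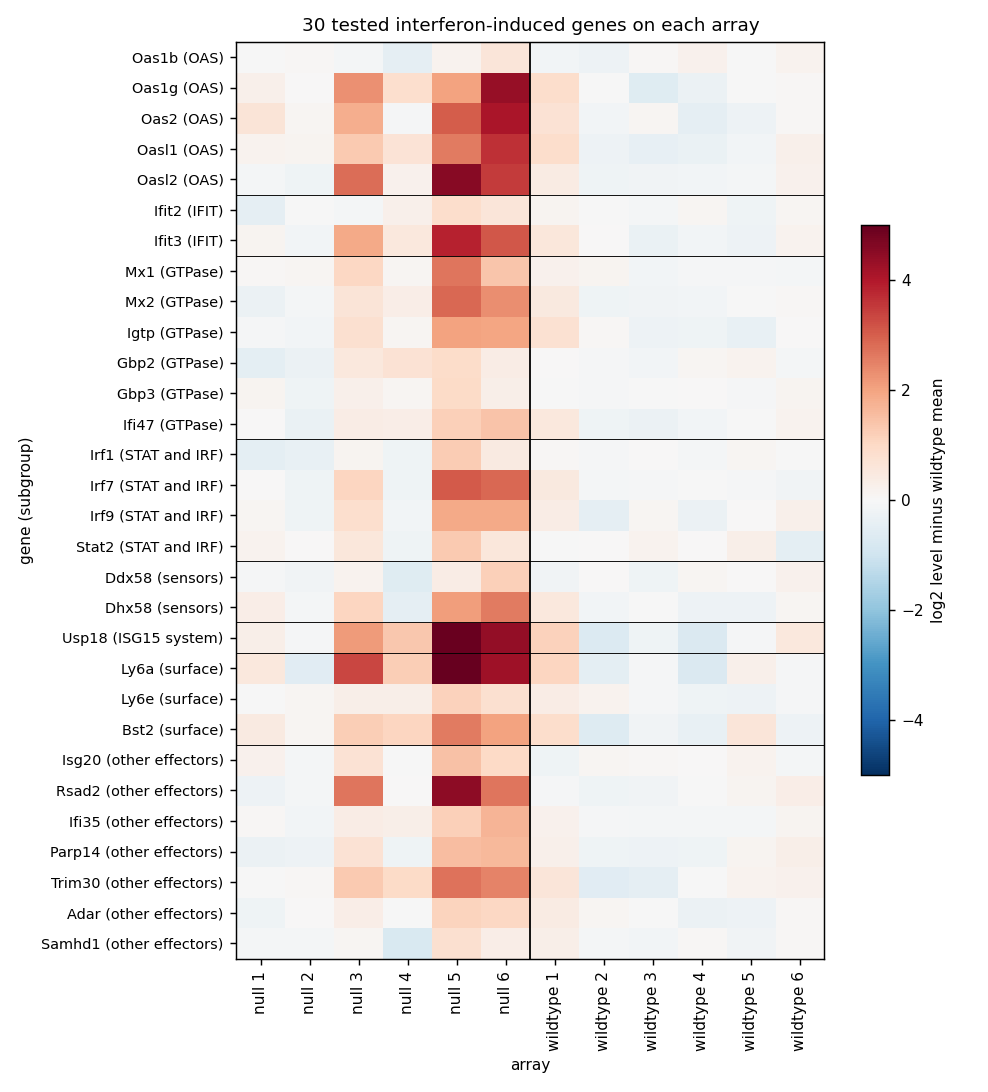
Log2 level minus the wildtype mean (colour, red above and blue below 0) of the 30 tested genes, in rows by subgroup, on each of the 12 arrays, with null arrays left of wildtype arrays; differences past 5 take the end colour. Null 5 and null 6 are red in nearly every row, null 3 in most, and null 1 and null 2 resemble the wildtype arrays.

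The same arrays were high for most genes. Null 5 had the highest level of all 12 arrays in 21 of the 30 genes and null 6 in the other 9, and no gene was highest in another array. Over all tested probes null 5 was highest in 17.5% and null 6 in 6.00%. In 27 genes null 5 and null 6 held the highest 2 places, as they did in 5.04% of all probes, and in 22 genes null 3, null 5 and null 6 filled the highest 3 places in some order, as in 4.73% of all probes. Null 6 exceeded every wildtype array in 30 genes, null 5 in 29, null 3 in 23, null 4 in 7, null 1 in 1 and null 2 in 0. Over all tested probes null 6 did so in 19.1%, null 5 in 24.0% and null 3 in 18.1%. Null 4, with 22.7% of all probes, was near its share, and null 1 (17.1%) and null 2 (16.1%) were below theirs. Below every wildtype array lay null 2 in 7 genes, null 1 in 6 and null 4 in 6, for which no share over all probes was computed. The median change of the 30 genes from the wildtype mean was 1.95 in null 5, 1.80 in null 6, 0.77 in null 3, 0.11 in null 4, 0.03 in null 1 and -0.10 in null 2. Among the wildtype arrays, wildtype 1 was the highest for 21 of the 30 genes, as it was for 18.1% of all probes, and its mean over the 30 genes lay 0.39 above the wildtype mean.

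**Figure D2:**
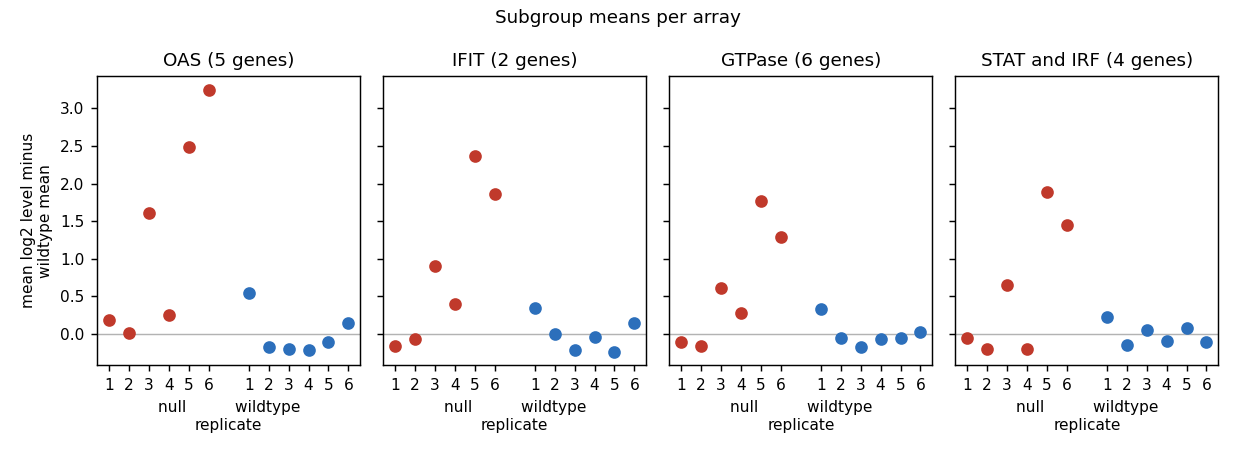
Mean over the genes of a subgroup of the log2 level minus the wildtype mean of the probe (y axis), for each replicate (x axis), with 6 null arrays (red) left of 6 wildtype arrays (blue) in each panel. In the OAS panel null 6 is the highest array at 3.25, and in the IFIT, GTPase and STAT and IRF panels null 5 is, at 2.36, 1.77 and 1.88.

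OAS enzymes make the oligoadenylates that activate the nuclease RNase L, and Oasl1 and Oasl2 are their relatives. Of these 4 subgroups the OAS genes lay farthest above the wildtype mean in null 6. The mean over its 5 tested genes was 0.19, 0.01, 1.61, 0.24, 2.48 and 3.25 above the wildtype mean in null 1 to null 6, against -0.21 to 0.54 in the wildtype arrays. Null 3, null 5 and null 6 lay above the whole wildtype range, and null 1, null 2 and null 4 lay within it. Null 6 exceeded null 5 in 4 of the 5 genes, by 0.77 in the mean. This order differed from that of the other 3 subgroups, in which null 6 lay below null 5 by 0.51 (IFIT), 0.48 (GTPase) and 0.44 (STAT and IRF).

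Oas1g, an oligoadenylate synthetase of the Oas1 cluster, had log2 levels of 5.70 (null 2), a median of 7.12 and 10.05 (null 6) in null samples, against 5.08, 5.67 and 6.55 in wildtype samples. Only null 3, null 5 and null 6 lay above all wildtype arrays, null 4 being a fraction short of wildtype 1. Its change was 1.64 (SE 0.60, adjusted p = 0.18). Oas2, the synthetase of middle size, ran from 5.14 (null 4) over a median of 6.43 to 9.29 (null 6) in null samples, against 4.76, 5.16 and 5.93 in wildtype samples. The groups overlapped in null 1, null 2 and null 4, and the change was 1.60 (SE 0.61, adjusted p = 0.20).

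Oasl1, an OAS-like protein known in mice to restrain Irf7 translation, had null levels of 5.25, 6.11 (median) and 8.79, against wildtype levels of 4.73, 4.93 and 5.98. Null 1, null 2 and null 4 fell among the wildtype arrays, and the change was 1.42 (SE 0.53, adjusted p = 0.20). Oasl2, an OAS-like protein with ubiquitin-like domains, was at 4.45, 6.17 (median) and 9.23 in null samples, against 4.48, 4.56 and 5.09 in wildtype samples, a change of 1.79 (SE 0.74, adjusted p = 0.23). It was detected on 3 null arrays and 1 wildtype array, and null 3, null 5 and null 6 alone exceeded all wildtype arrays. The remaining tested member, Oas1b, which in mice is known for resistance to flaviviruses, was detected on 2 arrays of each group and its change was 0.05.

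The IFIT proteins bind viral RNA and block its translation, and 2 of the 3 listed were tested. The subgroup mean was -0.16, -0.07, 0.90, 0.39, 2.36 and 1.86 in null 1 to null 6, against -0.24 to 0.34 in the wildtype arrays. These 2 genes differed from each other. Ifit3 ranged from 5.10 (null 2) over a median of 6.45 to 9.08 (null 5) in null samples, against 4.90, 5.18 and 5.80 in wildtype samples, with a change of 1.56 (SE 0.60, adjusted p = 0.20). Ifit2 ranged from 6.08 (null 1) over 6.67 to 7.43 (null 5) in null samples, against 6.33, 6.57 and 6.67 in wildtype samples, with a change of 0.20 (SE 0.19, adjusted p = 0.61) that was 0.059 without null 5, 0.12 without null 6 and 0.33 without null 1. For Ifit2 null 1 lay below every wildtype array and null 4, null 5 and null 6 above every one.

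**Figure D3:**
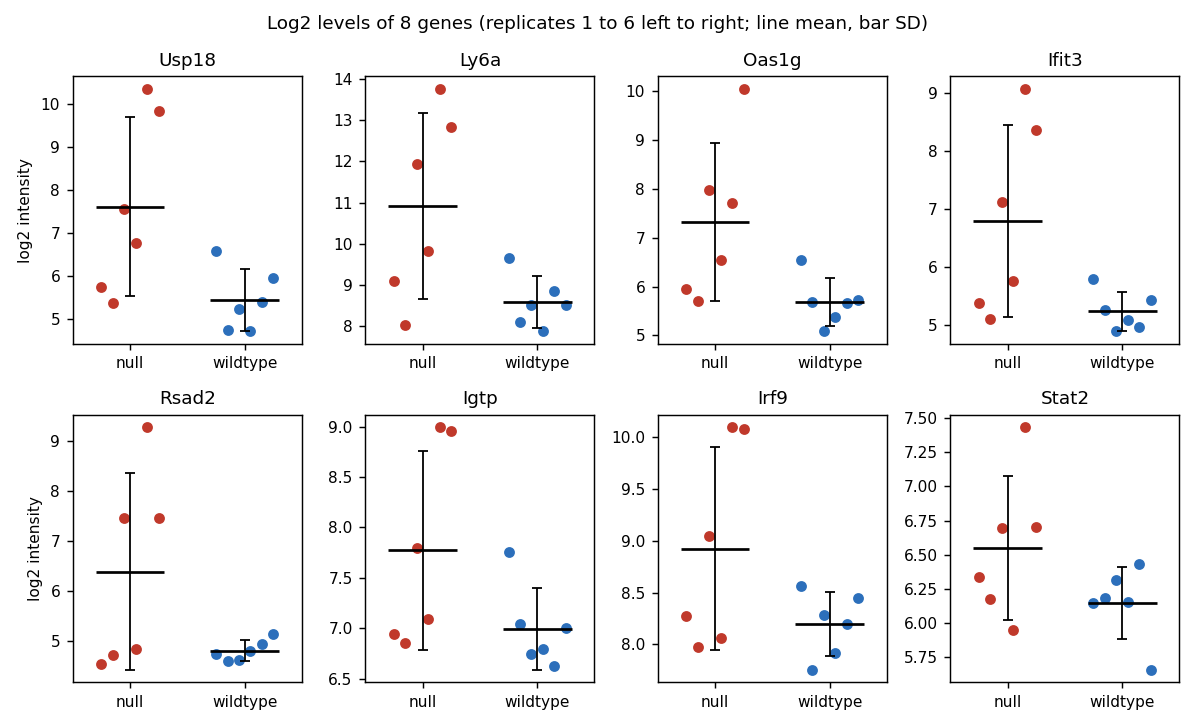
Log2 levels (y axis) of 8 interferon-induced genes in the 6 null samples (red, left) and the 6 wildtype samples (blue, right), replicates 1 to 6 from left to right, with the mean as a line and the SD as a bar; the y axes differ and do not start at 0. Null 5 and null 6 lie above the wildtype samples in every panel, and null 1 and null 2 lie among them or close to their edge.

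The interferon-induced GTPases comprise the Mx proteins, which bind viral ribonucleoproteins, the guanylate-binding proteins and the immunity-related GTPases, which act on membranes around intracellular pathogens. Their mean over 6 tested genes was -0.10, -0.16, 0.61, 0.28, 1.77 and 1.29 in null 1 to null 6, against -0.17 to 0.33 in the wildtype arrays. Mx1 was not well above background on any wildtype array and was detected on null 3, null 5 and null 6, where it reached 5.54, 7.19 and 5.87. It was at least 1.37-fold higher in null samples, with means of 5.39 ± 1.04 in null and 4.50 ± 0.14 in wildtype samples (SD, n = 6 each; adjusted p = 0.23). Its fitted change was 0.90, and 0.54 without null 5. The C57BL/6 strain is known to carry a defective Mx1 allele, and the probe's level says nothing of protein.

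Mx2 had null levels of 4.40, 5.18 (median) and 7.55, against 4.50, 4.63 and 5.17 in wildtype samples, a change of 0.96 (SE 0.48, adjusted p = 0.30), or 0.58 without null 5. Null 3, null 5 and null 6 were its only arrays above wildtype 1, the highest wildtype array. Igtp, an immunity-related GTPase also called Irgm3, was at 6.86, 7.44 (median) and 9.0 in null samples, against 6.62, 6.90 and 7.76 in wildtype samples, a change of 0.78 (SE 0.38, adjusted p = 0.30). Its null 5 and null 6 levels were 9.0 and 8.96, and wildtype 1 reached nearly the level of null 3. Changes were smaller in Ifi47 (0.50), Gbp2 (0.30) and Gbp3 (0.25), where null 5 and null 6 still lay above every wildtype array.

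The gene that the array names Irgm, an older name of Irgm1, falls outside the naming rule and was looked at after its values were seen. Its brightest probe had a mean of 12.85 ± 0.20 in null and 12.44 ± 0.14 in wildtype samples (SD, n = 6 each), a change of 0.40 (SE 0.10, adjusted p = 0.073). With BeadChip as a block it passed (adjusted p = 0.035), as it did without null 2 (0.46, adjusted p = 0.037). On this probe all null arrays but null 2 were above every wildtype array, and null 4, at 13.07, was the highest of the 12. A dimmer Irgm probe had a change of 0.50 (SE 0.27, adjusted p = 0.34). On it null 5 (9.47) and null 6 (9.43) were highest, and the other null arrays lay below wildtype 1 (8.35). The dimmest tested Irgm probe had a change of 0.24 (SE 0.18, adjusted p = 0.50).

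The STAT and IRF members are transcription factors of the pathway. Their mean was -0.05, -0.19, 0.65, -0.20, 1.88 and 1.45 in null 1 to null 6, against -0.15 to 0.22 in the wildtype arrays, so null 2 and null 4 lay a little below the wildtype range. Irf7, the factor that amplifies type I interferon production, was detected on 3 null arrays and 1 wildtype array, at 4.43, 5.21 (median) and 7.71 in null samples, against 4.48, 4.58 and 5.15 in wildtype samples. Its change was 1.09 (SE 0.55, adjusted p = 0.31), or 0.70 without null 5. Irf9, the DNA-binding part of ISGF3, was at 7.98, 8.66 (median) and 10.10 in null samples, against 7.75, 8.24 and 8.57 in wildtype samples.

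For Irf9 null 5 and null 6 stood at nearly one level, 10.10 and 10.08, and null 1, null 2 and null 4 lay among the wildtype arrays. The change was 0.73 (SE 0.37, adjusted p = 0.31). Stat2, a part of ISGF3, was at 5.94, 6.52 (median) and 7.44 in null samples, against 5.65, 6.17 and 6.43 in wildtype samples, a change of 0.40 (SE 0.22, adjusted p = 0.34), or 0.23 without null 5. Irf1, a factor that interferon gamma induces through a GAS element, had a change of 0.13. Its wildtype arrays lay within 10.19 to 10.36, while its null arrays ran from 9.77 (null 1) to 11.56 (null 5), with null 1, null 2 and null 4 below every wildtype array. They were so on a dimmer Irf1 probe too (change 0.20). On its other tested probes (changes of 0.34, 0.36 and 0.14) null 1, null 2 and null 4 lay within the wildtype range.

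Of the cytoplasmic RNA sensors Ddx58 (RIG-I) and Dhx58 (LGP2) were tested. The mean of these 2 genes was 0.15, -0.13, 0.62, -0.54, 1.23 and 1.89 in null 1 to null 6, against -0.11 to 0.17 in the wildtype arrays, with null 6 above null 5 in both. Dhx58 had null levels of 5.80, 6.95 (median) and 8.83, against 6.00, 6.18 and 6.77 in wildtype samples, a change of 0.92 (SE 0.44, adjusted p = 0.29), or 0.59 without null 6. Ddx58 had null levels of 5.22, 5.91 and 7.04, against 5.65, 5.88 and 6.06 in wildtype samples, a change of 0.15 (SE 0.23, adjusted p = 0.77). The direction of Ddx58 rests on null 6, without which its change was -0.060, and it was 0.30 without null 4. In both sensors null 4 was the lowest of the 12 arrays.

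Usp18, the protease that removes Isg15 from proteins and also damps type I interferon receptor signalling, ran from 5.39 (null 2) over a median of 7.17 to 10.36 (null 5) in null samples, against 4.73, 5.31 and 6.59 in wildtype samples. Its change was 2.17 (SE 0.78, adjusted p = 0.17). Null 3, null 4, null 5 and null 6 lay above every wildtype array. Null 4 did so in 7 of the 30 genes, near its share of 22.7% over all tested probes.

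Among the surface proteins, Ly6a (the stem-cell antigen Sca-1) had the largest fitted change of the 30 genes, 2.33 (SE 0.83, adjusted p = 0.17). Its levels were 8.03 (null 2), a median of 10.88 and 13.77 (null 5) in null samples, against 7.87, 8.52 and 9.65 in wildtype samples, with null 3 to null 6 above every wildtype array. Bst2 (tetherin), which holds budding virions at the membrane, was at 9.22, 10.26 (median) and 11.73 in null samples, against 8.45, 8.89 and 9.99 in wildtype samples. With a change of 1.25 (SE 0.40, adjusted p = 0.14) it had the smallest ratio of null to wildtype SD of the 30 genes, 1.55. Bst2 and Irf7 are also known for high levels in plasmacytoid dendritic cells, whose genes are given below. Ly6e, a membrane-anchored restriction factor, was at 12.22, 12.55 (median) and 13.42 in null samples, against 12.01, 12.20 and 12.62 in wildtype samples, a change of 0.44 (SE 0.19, adjusted p = 0.24).

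The other effectors, 7 tested genes, had a mean of -0.09, -0.09, 0.89, 0.04, 1.90 and 1.55 in null 1 to null 6, against -0.16 to 0.22 in the wildtype arrays. Rsad2 (viperin), which makes a chain-terminating nucleotide, was near background in null 1, null 2 and null 4 and reached 7.47 in null 3, 9.28 in null 5 and 7.47 in null 6, against a wildtype range of 4.58 to 5.14. Its change was 1.58 (SE 0.70, adjusted p = 0.25), or 1.00 without null 5. Trim30, listed now as Trim30a, a regulator of innate signalling in mice, was at 6.71, 7.84 (median) and 9.42 in null samples, against 6.15, 6.79 and 7.33 in wildtype samples. Its change was 1.25 (SE 0.44, adjusted p = 0.17), and null 3 to null 6 exceeded every wildtype array.

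Isg20, a 3′ exonuclease of RNA, was not well above background on any wildtype array and was at least 1.20-fold higher in null samples, with means of 5.20 ± 0.61 in null and 4.65 ± 0.15 in wildtype samples (SD, n = 6 each; adjusted p = 0.24). Smaller changes were those of Ifi35 (0.58), Parp14, a mono-ADP-ribosyltransferase (0.51), the RNA-editing enzyme Adar (0.37) and the dNTP hydrolase Samhd1 (0.05). In all 4 of these genes null 5 and null 6 were the highest 2 of the null arrays, and for Samhd1 null 4 lay below every wildtype array, at 8.76.

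The 8 other genes found on the array were not tested. Oas1a, Ifit1, Iigp1, Tgtp, Ifih1 (the sensor MDA5) and Ifi44, 6 genes, were not well above background on any array. Oas3 and Rtp4 were detected on 2 null arrays each and on no wildtype array. Oas3 was at 5.30 in null 5 and 5.05 in null 6, against 4.33 to 4.41 in wildtype samples, and Rtp4 was at 6.33 in null 6 and 5.04 in null 5, against 4.35 to 4.52. Oas3 was at least 1.16-fold and Rtp4 at least 1.01-fold higher in null samples. Where a tested gene had further tested probes, all 18 of them, in 12 genes, also had a change above 0, from 0.14 to 1.39, and none was called.

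**Figure D4:**
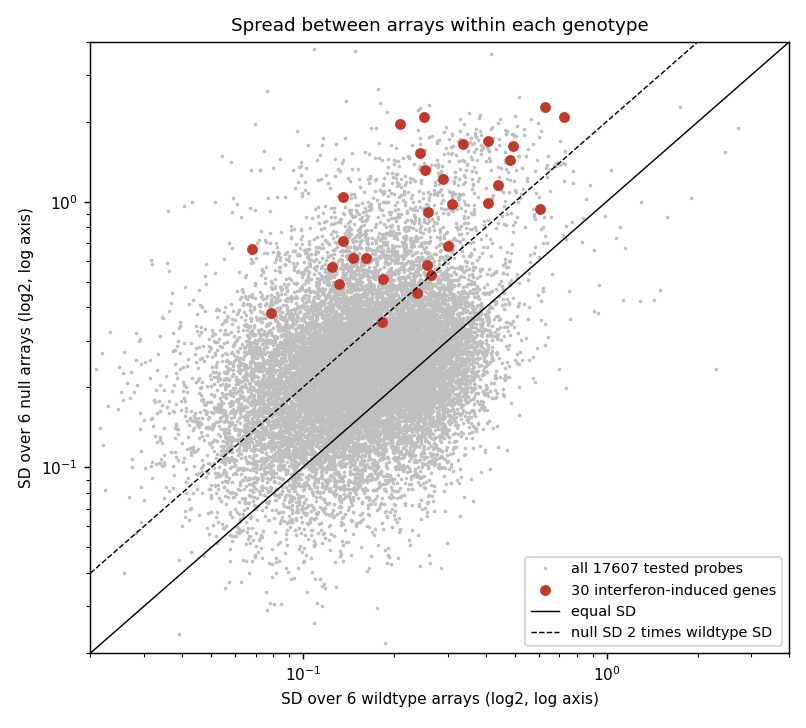
SD of the log2 level over the 6 null arrays (y axis) against that over the 6 wildtype arrays (x axis), both on log axes, for all tested probes (grey) and the 30 interferon-induced genes (red), with lines at equal SD and at 2 times the wildtype SD. All 30 genes lie above the line of equal SD, and 26 lie above the upper line.

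The spread between arrays was itself compared between genotypes with a Levene-type test, in which the deviations from each group's mean are fitted with limma over all tested probes. Oasl2 (adjusted p = 0.012) and Rsad2 (adjusted p = 0.041) passed as more variable in null samples, 2 of 30, against 0.108% of all tested probes. Oasl2 had an SD of 2.08 in null and 0.25 in wildtype samples, and Rsad2 one of 1.97 in null and 0.21 in wildtype samples (n = 6 each). Both were at background on most wildtype arrays (Oasl2 detected on 1 and Rsad2 on 2) and on 3 null arrays, so their wildtype SD is mostly of levels near background. With detection required on at least 6 arrays both were left out before the test, and 0 of the 23 genes then tested passed. At an unadjusted p under 0.05 the count was 23 of 30, against 13.8% of all tested probes. The null SD was over 2 times the wildtype SD in 26 genes, against 31.3% of all tested probes, and over 4 times in 13, against 7.1%. The median ratio was 3.67 for the 30 genes and 1.47 for all tested probes, and the highest was 9.78, of Irf1. These counts include the genes that were detected only where they were high. Of the 19 genes detected on all 12 arrays, 16 had a ratio over 2 and 5 over 4, against 34.8% and 7.23% of the probes so detected. The calls of wider spread depended on single arrays: 19 genes passed without null 3, 0 without wildtype 2, and 1 without wildtype 1, 3, 4, 5 or 6. The count of probes with a wider spread in null over the whole array moved with them, from 19 in the fit with all arrays to 312 without null 3 and 5 without wildtype 2.

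The change was larger on BeadChip 1, which held null 5 and null 6, than on BeadChip 2 in 30 of 30 genes. The median change was 1.19 on BeadChip 1 and 0.31 on BeadChip 2, each from 3 null and 3 wildtype arrays. The change of Usp18 was 3.47 on BeadChip 1 and 0.87 on BeadChip 2, and that of Oas1g 2.33 and 0.95, with neither gene called on either BeadChip. The difference between BeadChips was tested as an interaction, which called 0 of the 30 genes and 0.0% of all tested probes (lowest adjusted p of a listed gene 0.85), with 6 of the 30 genes at an unadjusted p under 0.05, against 5.72% of all tested probes. On BeadChip 2 the change was below 0 in 7 of the 30 genes, Irf1 (-0.24), Ifit2 (-0.18), Oas1b (-0.14), Gbp2 (-0.14), Ddx58 (-0.14), Parp14 (-0.03) and Samhd1 (-0.0076), and on BeadChip 1 in 0. For the counts of larger changes and of changes below 0, no share over all tested probes was computed. Whether they are particular to these genes is therefore not known.

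The genes that would act upstream, the interferons themselves, were next examined. Of 18 interferon genes on the array 13 were not well above background on any array, among them Ifnb1 and Ifng. Of the 4 tested, none was called: Ifnab was at 7.56 ± 0.29 in null and 7.39 ± 0.21 in wildtype samples, Ifna6 at 6.50 ± 0.31 in null and 6.39 ± 0.17 in wildtype samples, and Ifna1 at 5.05 ± 0.15 in null and 5.15 ± 0.19 in wildtype samples (SD, n = 6 each; adjusted p = 0.56, 0.69 and 0.67). Interferon genes are close copies of each other, so a probe may read more than its own gene. In null 5 and null 6 the mean of these 4 genes was 0.09 and -0.05 from the wildtype mean.

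Of the receptors and signalling genes 13 of 15 were tested and none was called. Those of smallest p were Pias1, an inhibitor of activated STATs (-0.36, SE 0.09, adjusted p = 0.081), Ifngr1, the ligand-binding chain of the interferon gamma receptor (0.43, SE 0.16, adjusted p = 0.19), and Il10rb, a chain of the receptors for interleukin 10 and interferon lambda (0.45, SE 0.19, adjusted p = 0.24). Ifnar1 was not well above background on any array. The mean of the 13 genes was 0.68 in null 5, 0.20 in null 6 and 0.31 in null 3, against -0.10 to 0.08 in the wildtype arrays.

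Of the genes that sense nucleic acid and induce interferon, 14 of 16 were tested. Of these 1 was called as higher in null, against 0.534% of all tested probes. Mb21d1, the cytosolic DNA sensor cGAS, was at 9.67 ± 0.32 in null and 9.03 ± 0.18 in wildtype samples (SD, n = 6 each), a change of 0.64 (SE 0.14, adjusted p = 0.046). Its levels were 9.27 (null 4), a median of 9.60 and 10.24 (null 6) in null samples, against 8.82, 9.04 and 9.22 in wildtype samples. Every null array thus lay above every wildtype array, as in 1.38% of all tested probes. The call was lost in 11 of the 12 fits without 1 array, the exception being that without null 4, and under 6 of 12 other settings, with an adjusted p of 0.43 under median scaling, 0.31 on BeadChip 1 and 0.19 on BeadChip 2. Next by p were Tmem173 (STING), the adaptor below cGAS (0.67, SE 0.25, adjusted p = 0.20), and Traf6, a ubiquitin ligase of Toll-like receptor signalling (-0.22, SE 0.08, adjusted p = 0.20).

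Of 51 other interferon-induced genes on the array 34 were tested and none was called. The median change was 0.41, against -0.04 over all tested probes. The null SD was over 2 times the wildtype SD in 27, against 31.3% of all tested probes. Some of the 34, such as Slfn1 and Phf11, were detected on no wildtype array and entered the test through null arrays. The mean of the 34 genes was 0.03, -0.09, 0.79, 0.04, 1.24 and 1.40 in null 1 to null 6, against -0.10 to 0.22 in the wildtype arrays, which is the order of the listed genes but for null 6 above null 5. The 3 of smallest p were the chemokine Ccl5 (1.32, SE 0.36, adjusted p = 0.086), the lysosomal reductase Ifi30 (0.76, SE 0.24, adjusted p = 0.13) and the membrane protein Ifitm1 (1.79, SE 0.56, adjusted p = 0.13). Ccl5 passed without null 1 (1.59, adjusted p = 0.021). It is also known as a product of activated T and NK cells.

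**Figure D5:**
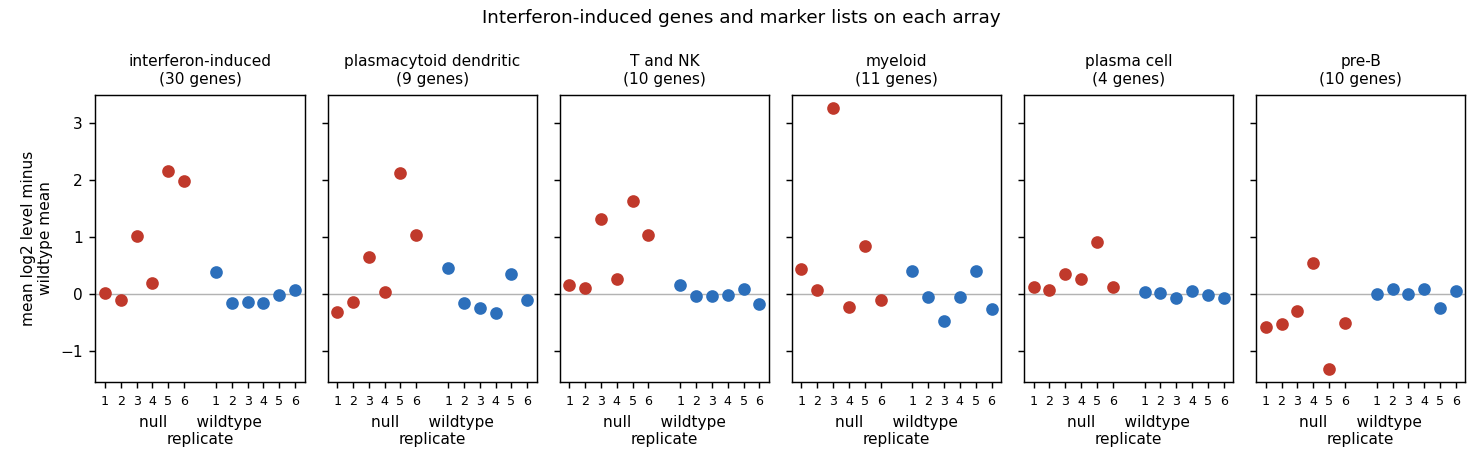
Mean log2 level minus the wildtype mean (y axis) of the 30 interferon-induced genes and of 5 marker lists on each replicate (x axis), null arrays (red) left of wildtype arrays (blue). Null 5 is highest in the interferon, plasmacytoid dendritic, T and NK and plasma cell panels and lowest in the pre-B panel, and null 3 is highest in the myeloid panel.

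Of the marker lists of other cell types, the plasmacytoid dendritic and the T and NK lists were highest in null 3, null 5 and null 6, as the interferon-induced genes were, and the myeloid, plasma cell and erythroid lists were not. Of 11 plasmacytoid dendritic genes on the array 9 were tested and none was called. Their mean was -0.31, -0.13, 0.65, 0.05, 2.13 and 1.04 in null 1 to null 6, against -0.32 to 0.47 in the wildtype arrays. Siglech, a defining receptor of these cells, was detected on all arrays at 9.76 ± 1.22 in null and 8.95 ± 0.55 in wildtype samples (SD, n = 6 each), and Ccr9 and Runx2 were not well above background on any array. Spib went the other way, at 9.51 ± 0.35 in null and 10.03 ± 0.14 in wildtype samples (change -0.52, SE 0.14, adjusted p = 0.095). Its levels in null 5 (9.36) and null 6 (9.75) lay below every wildtype array, the lowest of which was at 9.92. Changes of the other tested genes were above 0, with that of Atp1b1 at 0.04. With the mean of the 9 genes as a covariate, the median change of the 30 interferon-induced genes was 0.23 and 6 had an unadjusted p under 0.05. That mean was itself high in null 3, null 5 and null 6, so this fit cannot separate the content of such cells from induction.

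Of 13 T and NK genes 10 were tested and none was called, with means of 0.17, 0.12, 1.32, 0.26, 1.64 and 1.04 in null 1 to null 6, against -0.17 to 0.17 in the wildtype arrays. The defining Cd3e was detected on 3 null arrays and no wildtype array, and Cd8a, Gzmb and Ncr1 were not well above background on any array. The mean of 11 myeloid genes was 0.45, 0.07, 3.27, -0.23, 0.85 and -0.10, against -0.48 to 0.42 in the wildtype arrays, so it was high in null 3 and not in null 6. The mean of 4 plasma cell genes reached 0.92 in null 5 and 0.35 in null 3, against -0.06 to 0.06 in the wildtype arrays, with Prdm1, Jchain and Tnfrsf17 not well above background on any array. Of these 4 genes Sdc1, Xbp1 and Fkbp11 had changes above 0, and Irf4 went the other way (change -0.51, SE 0.18, adjusted p = 0.16). In null 5 Irf4 was at 8.58, below every wildtype array. The part of plasmacytoid dendritic, T and NK, myeloid and plasma cells in the result was not tested.

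The mean of 10 tested pre-B genes was -0.58, -0.53, -0.30, 0.54, -1.31 and -0.50 in null 1 to null 6, against -0.25 to 0.09 in the wildtype arrays. It was lowest in null 5, and null 6 had about the value of null 1 and null 2, in which the interferon-induced genes lay at the wildtype level. The mean of 3 erythroid genes was highest in null 3, at 1.67, and was -0.59 in null 5 and -0.54 in null 6, against -0.41 to 0.93 in the wildtype arrays. With null 3 and null 5 left out together, the median change of the interferon-induced genes was 0.44 and 1 of 30 had an unadjusted p under 0.05.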

How the data were processed

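Gene expression was measured in 6 Smchd1 null and 6 Smchd1 wildtype samples, 1 Illumina array each, with groups and BeadChips from the labels. The deposited intensity values are mean bead intensities per probe, with a detection score (a fraction, 1 minus the detection p-value) and a count of beads per probe, per the file headers, which name GenomeStudio 1.8.0. The deposited detection p-value and log2 value tables were made by the authors, and the submitters' processing notes name BeadStudio, R 2.15.1 and limma 3.12.1. For the array files, no label or header used here names a genome build. Listed genes' probes had 14 to 68 beads per array, with a bead standard error of at most 13.2%.

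Intensities were background-corrected with 936 negative controls and quantile normalized with an offset of 16 (neqc, limma 3.58.1, R 4.3.3), which differed from the authors' log2 values by at most 5.0e-09. Null was compared with wildtype by limma's lmFit and eBayes without covariates, with Benjamini-Hochberg adjustment over the 17607 tested probes, leaving out 27674 dim ones. Changes are null minus wildtype. Where all arrays of one genotype failed to detect a probe, "at least N-fold" takes for each such array the lowest detected signal, or the probe's own if that is higher, and compares their mean with the mean of the brighter genotype. The fits were tested on simulated data.

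Each subgroup's full statistics went to up to 3 tested genes of smallest unadjusted p and the gene of largest change. Of the lists of upstream and other interferon-induced genes up to 3 of smallest p were named. The genes, lists, marker genes and alternatives were chosen with earlier results of these data known, so no list's direction is independent evidence. Same-numbered replicates did not deviate together: the correlations of their deviations from the group means ran from -0.29 to 0.08, so the numbers do not pair samples. Of 30774 target names on the array 15991 are current symbols in the RefSeq gene table for GRCm38.p6 and 5826 matched a synonym. Alternatives were other scalings and filters, blocks for BeadChip or replicate number, single BeadChips, array weights, all probes of a gene, a plasmacytoid dendritic covariate, and arrays left out. Single values of some genes are not reported here.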

Additional observations from a re-analysis of the deposited data

Results flagged for a closer look

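Of 60 groups of 6 samples (30 genes, 2 genotypes), 5 held a sample standing far from the other 5, by Dixon's criterion, and chance gives about 1 such group in 20. All 5 were wildtype groups. In wildtype 1 the log2 level was the highest by a wide gap for Mx2 (5.17), Igtp (7.76) and Irf7 (5.15), and wildtype 1 was also the highest wildtype array for 21 of the 30 genes. In wildtype 6 the level of Gbp3 (8.01) was set apart as the highest and that of Stat2 (5.65) as the lowest. No null group was so marked, but the criterion looks for 1 sample apart from the rest. In 27 of the 30 genes null 5 and null 6 held the highest 2 places of all arrays, so each can hide the other. The lack of a marked null group therefore does not show that no null sample stood apart. The groups of different genes come from the same arrays and are not independent. The share of 1 in 20 thus cannot be used to judge the count of 5.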

How the results depend on the processing

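In all 24 alternative fits 0 of the tested genes were called as higher and 0 as lower in null, and the median change stayed above 0, from 0.52 (without null 5) to 0.94 (without null 2) with 1 array left out. The count at an unadjusted p under 0.05 ran from 7 (without null 6) to 21 (without null 1 or null 2), and was 2 on BeadChip 2. Probes called over the whole array, 215 in the reported fit, were 92 under median scaling, 101 without the detection filter, 12 on BeadChip 1, 43 on BeadChip 2, 380 with array weights and 68 to 319 with 1 array left out. With the replicate block 104 probes and 0 interferon-induced genes were called. Genes of wider spread in null, 2 in the reported fit, were 6 under median scaling, 0 without the filter, 0 with detection on at least 6 arrays (where Oasl2 and Rsad2 were not tested), 0 on BeadChip 1, 0 on BeadChip 2, 0 without null 3 and null 5, and 0 to 19 with 1 array left out. Probes with a wider spread in null over the whole array, 19 in the reported fit, were then 73, 7, 11, 0, 0, 37 and 5 to 312. For these counts the cause was not tested, beyond fewer samples on each BeadChip. Of 498 values of the 21 genes with full statistics 5 were below 0: Ifit2 on BeadChip 2 (-0.18) and with the plasmacytoid dendritic covariate (-0.033), and Ddx58 on BeadChip 2 (-0.14), with that covariate (-0.043) and without null 6 (-0.060; up to 0.30 with another array left out). Ifna6 was at -0.036 on BeadChip 1. None of the 498 was called (lowest adjusted p 0.059, Ly6a without null 2). The brightest Irgm probe passed with BeadChip as a block (adjusted p = 0.035) and without null 2 (0.037). Signal over background limits the 8 untested genes and the genes not detected on every wildtype array.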
